A study of Mus musculus with 12 samples.

Results

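The RNA of 9 antioxidant and metal-binding genes was described in the gastrocnemius, the large calf muscle, of mice whose right sciatic nerve had been cut. The genes are the aldehyde dehydrogenase Aldh3a1, the metallothioneins Mt1 and Mt2, and the antioxidant enzymes Hmox1, Nqo1, Gclc, Gclm, Srxn1 and Txnrd1. They are 9 of the 25094 genes listed in each of the series' expression tables, and all 9 were found by symbol in both. They were selected on earlier results of the same right-against-left comparison, so their own values are given below as a description, with no p-value, and a count of how many passed the fit's threshold is printed once and nothing is read from it. All 9 passed the filter on low values in both tables, which asked for 0.1 RPKM or more on average across a strain's libraries.

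Polyadenylated RNA came from wild-type males of 2 inbred strains, C57BL/6 and BALB/c, and was sequenced with 3 libraries for each leg of each strain and 12 in all. In the right leg the nerve was transected and its stumps were turned back and stitched to muscle, and the labels call this leg atrophied. The left leg is labelled healthy. Both muscles were collected 2 weeks after the operation. The surgical protocol also describes a sham operation in which the nerve was only exposed, but whether it was done on the left legs is not labelled, and no age is stated for the mice. The left leg belongs to an operated animal, and the whole muscle was sampled with every cell type in it. The labels do not state whether replicate libraries are different animals, so the errors measure only the spread between these libraries.

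Cells meet oxidants and reactive aldehydes with a set of enzymes, many of them under the transcription factor NRF2, which is encoded by Nfe2l2. NRF2 is held back by KEAP1 and, once released, binds antioxidant response elements in DNA together with small MAF proteins, while BACH1 represses many of the same sites. Metallothioneins are small cysteine-rich proteins that bind zinc and copper, and their genes respond to zinc through the factor MTF1 and metal response elements, as well as to glucocorticoids and oxidative stress. Aldh3a1 oxidizes aldehydes made by lipid peroxidation and is best known as an abundant protein of the corneal epithelium and as a target of the aryl hydrocarbon receptor in liver. Skeletal muscle that loses its nerve atrophies, and oxidant production in its mitochondria rises.

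The libraries held 14826934 to 17323385 reads in listed genes, recovered from the deposited values. RPKM (reads scaled to transcript length and to the library's total) in the 2 strains came from tables scaled separately, so levels are compared within a strain. The RNA was that of muscle: the summed RPKM of 10 fibre genes such as Ckm and Acta1 was 153500 to 165700 in the C57BL/6 left leg and 89140 to 92000 in the right, and 110100 to 146400 against 70560 to 99850 in BALB/c. Most genes read higher in the right leg on this scale, with a median log2 change over all tested genes of 0.52 in C57BL/6 and 0.38 in BALB/c. Rescaling the values by median-of-ratios factors brought these medians to 0.01 in both strains. Each change below is the difference of the means of log2(RPKM + 0.5), right minus left, and a relative change has the strain's median subtracted.

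The largest change among the 9 genes was that of Aldh3a1, which lies on chromosome 11 at 61022244 to 61031918 in mm9. In the C57BL/6 left leg it read 0.1, 0.101 and 0.269 RPKM, which is 3, 3 and 8 reads. In the right leg it read 588, 297 and 369 RPKM. The legs were far apart, with the left libraries at or near the limit of detection (3 reads a library). Over the 3 libraries of a leg, 14 reads stood against 37807, a depth-corrected ratio of 2674 with an exact 95% Poisson interval of 1594 to 4892, which covers counting error only. The log2 change was 9.27 ± 0.24 (SE, n = 3 and 3). With so few left reads it depends on the pseudocount, and was 10.67 with 0.1 RPKM and 8.45 with 1 RPKM in place of 0.5.

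In BALB/c the legs were as clearly separate for Aldh3a1. The left libraries read 0.139, 0.383 and 0.170 RPKM, and the right ones 149, 294 and 375 RPKM. Again no library of one leg came near the other leg. The reads were 20 against 24539, a ratio of 1185 with an interval of 767 to 1940. The log2 change was 8.46 ± 0.32, and lay 0.81 ± 0.45 under that of C57BL/6, a difference of less than 2 standard errors.

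**Figure D1:**
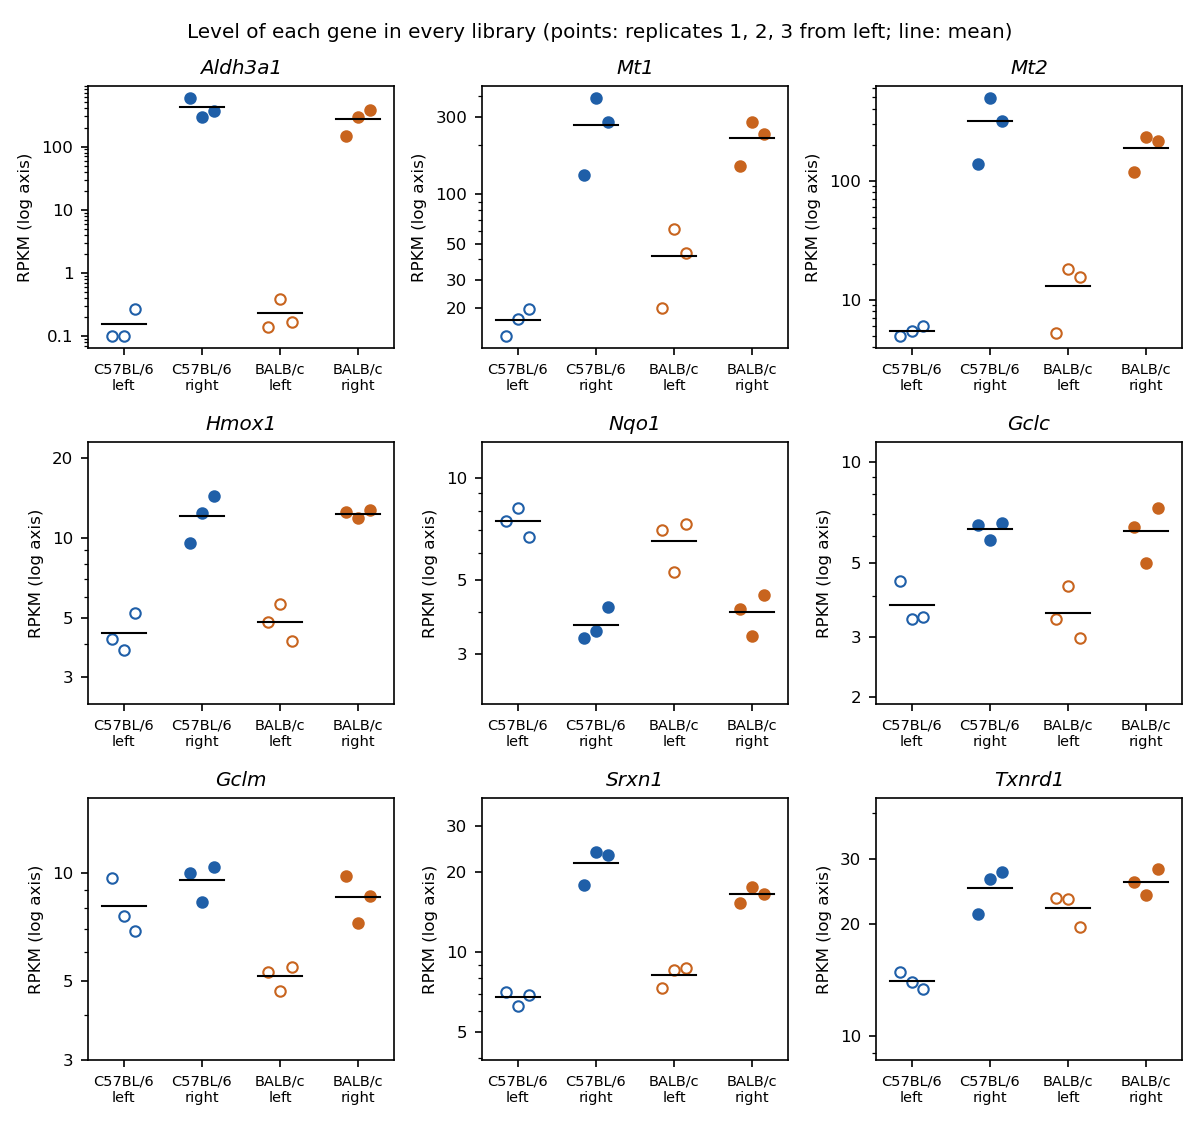
RPKM of each of the 9 genes in all 12 libraries, on log axes that differ between panels; open points are left legs, filled points right legs, and the line is the mean of 3 libraries. Aldh3a1, Mt1 and Mt2 sit far higher in the right leg of both strains, and Nqo1 sits lower.

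Mt1 and Mt2, neighbours on chromosome 8 in mm9 (Mt2 at 96696518 to 96697467, Mt1 at 96702989 to 96704227), were the next most changed. In C57BL/6, Mt1 read 13.5, 17.3 and 19.98 RPKM on the left and 132, 391 and 279 RPKM on the right. Mt2 read 4.97, 5.52 and 6.07 RPKM on the left and 139, 494 and 316 RPKM on the right. The left libraries were close together and the right ones spread widely, with right library 1 the lowest and right library 2 the highest for both genes. The log2 changes were 3.82 ± 0.37 for Mt1 and 5.54 ± 0.41 for Mt2.

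In BALB/c the left libraries were spread more widely around their mean. Mt1 read 20.2, 61.4 and 43.5 RPKM on the left and 149, 277 and 236 RPKM on the right. Mt2 read 5.27, 18.3 and 15.4 RPKM on the left and 118, 234 and 215 RPKM on the right. The first left library was the lowest for both genes, and the legs did not overlap. The log2 changes were 2.48 ± 0.40 for Mt1 and 3.92 ± 0.45 for Mt2, which lay 1.34 ± 0.61 and 1.62 ± 0.68 under those of C57BL/6.

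The metallothioneins did not change in proportion. Within a library, the ratio of Mt2 to Mt1 RPKM was 0.367, 0.319 and 0.304 in the C57BL/6 left leg and 1.06, 1.26 and 1.13 in the right. In BALB/c it was 0.261, 0.298 and 0.355 on the left and 0.794, 0.846 and 0.911 on the right. Mt1 was thus the more abundant transcript per length in every left library of both strains and in the 3 BALB/c right libraries, while Mt2 was the more abundant in the 3 C57BL/6 right libraries. A ratio within a library does not depend on how libraries are scaled. The mean ratio moved from 0.330 ± 0.033 to 1.15 ± 0.11 (SD, n = 3) in C57BL/6 and from 0.305 ± 0.047 to 0.850 ± 0.059 in BALB/c. Across the 12 libraries the deviations of Mt1 and Mt2 from their group means followed each other, with a Pearson coefficient of 0.98. That of Mt2 with Srxn1 was 0.89, and that of Mt2 with Aldh3a1 was 0.05. These coefficients share libraries and their depth, and are given as a description only.

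**Figure D2:**
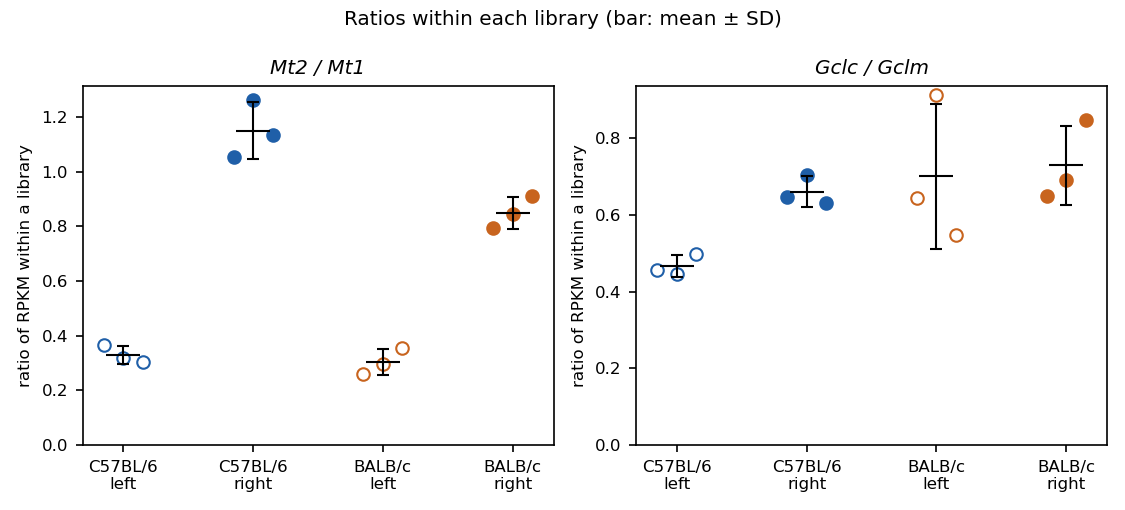
Ratio of Mt2 to Mt1 RPKM (left panel) and of Gclc to Gclm RPKM (right panel) within each library; points are libraries, and bars give the mean and SD of 3. The Mt2 to Mt1 ratio is higher in every right library than in any left library of its strain, and the Gclc to Gclm ratio separates the legs in C57BL/6 only.

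Because the metallothionein pair moved together, the reference sequence before their starts is shown. RefSeq promoter windows of GRCm38.p6, a later build than that of the gene positions above, were matched for 6 of the 9 genes, namely Mt1, Mt2, Nqo1, Gclm, Srxn1 and Txnrd1. The 250 bases before each start were searched on both strands for the letters TGCACNC or TGCGCNC, the core of the metal response element. The windows are chr8:94178839-94179088 for Mt1 and chr8:94172368-94172617 for Mt2, both on the plus strand. They are printed 5′ to 3′ with each match in capitals.
Mt1: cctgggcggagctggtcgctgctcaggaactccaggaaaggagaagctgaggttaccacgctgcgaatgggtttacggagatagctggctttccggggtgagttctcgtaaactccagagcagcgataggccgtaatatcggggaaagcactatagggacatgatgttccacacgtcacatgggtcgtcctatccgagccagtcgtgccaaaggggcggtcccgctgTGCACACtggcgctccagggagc
Mt2: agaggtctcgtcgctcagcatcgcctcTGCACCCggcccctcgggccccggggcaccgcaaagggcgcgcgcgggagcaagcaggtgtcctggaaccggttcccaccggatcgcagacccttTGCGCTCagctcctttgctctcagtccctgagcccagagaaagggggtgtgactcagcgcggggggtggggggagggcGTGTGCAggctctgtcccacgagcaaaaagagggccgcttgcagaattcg
The Mt2 window held 3 matches, beginning 223, 128 and 50 bases before the start, and the Mt1 window held 1, beginning 23 bases before it. These counts depend on where the start is annotated and cover only the 250 bases before it. Bases past the start or further up were not searched. The motif was not limited to this pair: the Gclm window held 2 matches and the Srxn1 window 1. Of 32851 RefSeq windows of this length, 21.4% held at least 1 match and 1.26% held 3 or more. The Mt2 match nearest to the start overlaps a GCGTG, the core of the xenobiotic response element bound by the aryl hydrocarbon receptor, which 28.2% of all windows held. GCGTG was also found for Mt1, Srxn1, Gclm (3 matches) and in each of the 3 Txnrd1 windows, so that Nqo1 was the only one of the 6 genes without it. The sequences are those of the reference genome, and the BALB/c sequence was not analysed here.

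The antioxidant response element was searched as TGACNNNGC, which 10.2% of all windows held. Among the 6 genes it was found for Mt2, Gclm and 1 of the 3 Txnrd1 windows. The Srxn1 window held TGAGTCAGC, a one-letter variant that was added to the search after this window had been seen and that 0.347% of all windows held. The Nqo1 window held none of these motifs, which says only that the letters are not in these 250 bases. The 4 matches are shown in capitals with the bases around them, read 5′ to 3′ in the direction of the gene; those of Gclm and Txnrd1 are on the opposite strand, so their capitals are the reverse complement.
Mt2: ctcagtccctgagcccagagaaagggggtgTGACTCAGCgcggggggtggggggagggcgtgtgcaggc
Gclm: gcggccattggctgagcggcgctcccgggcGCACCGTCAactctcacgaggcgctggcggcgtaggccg
Txnrd1: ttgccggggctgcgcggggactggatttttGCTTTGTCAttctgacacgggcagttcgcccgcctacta
Srxn1: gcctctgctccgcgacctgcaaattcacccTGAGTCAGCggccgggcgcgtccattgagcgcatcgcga
In that order the matches begin 79, 134, 92 and 45 bases before the start, and the stretches are chr8:94172509-94172577, chr3:122245393-122245461, chr10:82859084-82859152 and chr2:152105449-152105517. A match is a description of the sequence and not a bound site. The 4 genes did not move alike: the log2 change in C57BL/6 was 5.54 for Mt2 and 0.24 for Gclm.

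Srxn1, the sulfiredoxin that repairs over-oxidized peroxiredoxins, lies on chromosome 2 at 151931260 to 151937112 in mm9. In C57BL/6 it read 7.10, 6.31 and 6.92 RPKM on the left and 18.001, 23.8 and 23.2 RPKM on the right. The BALB/c libraries read 7.36, 8.56 and 8.70 RPKM on the left and 15.3, 17.7 and 16.6 RPKM on the right. The legs were well apart in both strains. The log2 changes were 1.60 ± 0.12 and 0.97 ± 0.13, and the BALB/c change was the smaller by 0.63 ± 0.17.

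Txnrd1, the cytosolic thioredoxin reductase, lies on chromosome 10 at 82321951 to 82360469 in mm9. Its span overlaps that of Eid3. Exon reads were counted without strand, and whether exons of the 2 genes overlap was not examined. The Txnrd1 level was 14.9, 14.0 and 13.4 RPKM in the C57BL/6 left leg and 21.4, 26.4 and 27.6 RPKM in the right. The BALB/c left leg read 23.5, 23.3 and 19.7 RPKM, and the right leg 26.0, 24.0 and 28.1 RPKM. The BALB/c legs did not overlap but nearly touched. The log2 change was 0.80 ± 0.11 in C57BL/6 and 0.23 ± 0.13 in BALB/c, and the latter became -0.29 after rescaling.

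Gclc and Gclm encode the catalytic and the modifier subunit of glutamate-cysteine ligase, the rate-limiting enzyme of glutathione synthesis. Gclc (chromosome 9, 77602342 to 77642296) read 4.42, 3.396 and 3.44 RPKM on the left and 6.49, 5.86 and 6.56 RPKM on the right in C57BL/6. The BALB/c levels were 3.41, 4.27 and 2.98 RPKM on the left and 6.38, 5.003 and 7.30 RPKM on the right. Its right libraries were all higher than its left ones in both strains, by a log2 change of 0.68 ± 0.11 and 0.73 ± 0.19. Relative to the median tested gene these changes were 0.16 and 0.35.

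Gclm (chromosome 3, 121948475 to 121970133) read 9.71, 7.60 and 6.90 RPKM on the left and 10.019, 8.30 and 10.4 RPKM on the right in C57BL/6. In BALB/c it read 5.29, 4.68 and 5.45 RPKM on the left and 9.81, 7.24 and 8.62 RPKM on the right. The legs overlapped in C57BL/6 and were apart in BALB/c. The log2 change was 0.24 ± 0.14 in C57BL/6, which became -0.44 after rescaling, and 0.68 ± 0.16 in BALB/c. The ratio of Gclc to Gclm RPKM was 0.467 ± 0.028 on the left and 0.661 ± 0.039 on the right in C57BL/6 (SD, n = 3), with no overlap. In BALB/c it was 0.702 ± 0.189 against 0.729 ± 0.104, with overlapping legs.

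Hmox1 encodes the inducible haem oxygenase, which breaks haem down to biliverdin, iron and carbon monoxide, and lies on chromosome 8 at 77617517 to 77624492 in mm9. It read 4.17, 3.81 and 5.25 RPKM in the C57BL/6 left leg and 9.57, 12.4 and 14.3 RPKM in the right. In BALB/c it read 4.82, 5.62 and 4.12 RPKM on the left and 12.5, 11.9 and 12.7 RPKM on the right. The legs did not overlap in either strain. The log2 changes were 1.35 ± 0.17 and 1.27 ± 0.15, which differed by 0.08 ± 0.23. Summed erythroid marker RPKM was 12470, 27120 and 399.5 in the BALB/c right libraries and 1308, 1848 and 238.9 in the left ones, and the part of blood RNA in the Hmox1 change was not tested. Without right library 2, the highest in erythroid markers, the BALB/c change of Hmox1 was 1.30, but right library 1 is rich in them too.

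Nqo1, a quinone reductase often used as a readout of NRF2, was the only one of the 9 that was lower in the right leg in both strains, on the deposited scale and after rescaling. It lies on the minus strand of chromosome 8 at 109912125 to 109927105 in mm9. In C57BL/6 it read 7.48, 8.16 and 6.71 RPKM on the left and 3.36, 3.51 and 4.16 RPKM on the right. The BALB/c libraries read 6.99, 5.25 and 7.32 RPKM on the left and 4.08, 3.41 and 4.50 RPKM on the right. No right library reached the lowest left one. The log2 changes were -0.93 ± 0.11 and -0.64 ± 0.18, or -1.45 and -1.01 relative to the median tested gene.

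By count, 7 of the 9 were called higher in the right leg and 1, Nqo1, lower in each strain, at an adjusted p under 0.05 in limma; the exceptions were Gclm in C57BL/6 and Txnrd1 in BALB/c. Over all tested genes the same rule called 63.6% higher and 8.56% lower in C57BL/6, and 42.5% higher and 7.67% lower in BALB/c. Since the genes were selected on this comparison, nothing is read from their count. The 3 right libraries lay above the 3 left ones for 7 of the 9 in C57BL/6, as for 66.2% of all tested genes, and for 8 of the 9 in BALB/c, as for 48.1%. They lay below for Nqo1 in each strain, as for 9.57% and 10.4% of all tested genes. The median log2 change of the 9 was 1.35 in C57BL/6 and 0.97 in BALB/c, beside 0.52 and 0.38 over all tested genes. After rescaling, Aldh3a1, Mt1, Mt2, Hmox1, Srxn1 and Gclc stayed higher on the right in both strains, Gclc by only 0.03 and 0.26.

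**Figure D3:**
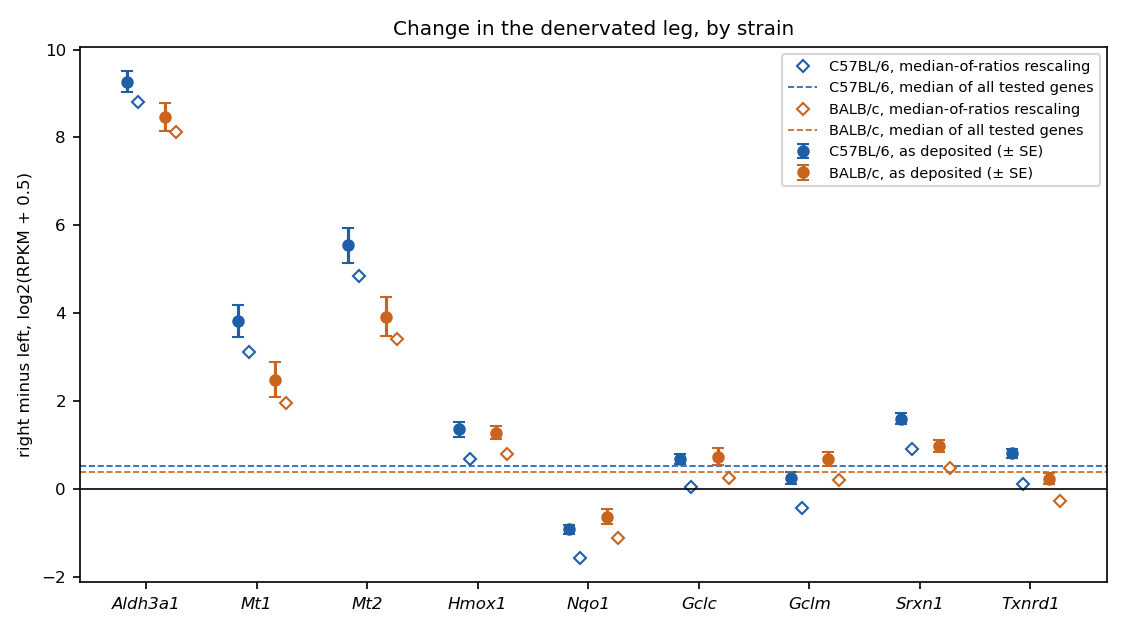
Difference of mean log2(RPKM + 0.5), right minus left, for each gene and strain. Filled points with bars are the deposited scale with the SE, open diamonds the median-of-ratios rescaling, and dashed lines the median of all tested genes (0.52 and 0.38). Gclc, Gclm and Txnrd1 lie near the dashed lines and Nqo1 below them.

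The order of the genes by level per length changed with the leg. In the C57BL/6 left leg Mt1 and Txnrd1 led, at 16.9 ± 3.2 and 14.1 ± 0.75 RPKM (SD, n = 3), with overlapping ranges. Gclm, Nqo1 and Srxn1 followed, each overlapping the next, then Mt2, Hmox1 and Gclc, each again overlapping the next, and Aldh3a1 came last. In the right leg Aldh3a1 at 418 ± 152 RPKM, Mt2 at 316 ± 178 RPKM and Mt1 at 267 ± 130 RPKM led, each overlapping the next. Txnrd1 followed at 25.1 ± 3.3 RPKM, and Nqo1 was last at 3.68 ± 0.43 RPKM. In BALB/c the left order again began with Mt1 and Txnrd1 and ended with Aldh3a1, and the right order was led by Aldh3a1, Mt1 and Mt2, with overlapping ranges, and ended with Nqo1.

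The genes whose pattern over the 12 libraries was nearest to Aldh3a1 were Krt18, Rrad and Chrng, at root mean square differences of 0.47, 0.65 and 0.82 in log2 among 14156 genes. Krt18 encodes a keratin, Rrad a small GTPase of muscle, and Chrng the fetal subunit of the muscle acetylcholine receptor. Krt18 averaged 0.432 RPKM on the left and 674 RPKM on the right in C57BL/6, and 0.236 and 456 RPKM in BALB/c. Chrng averaged 0.065 and 154 RPKM in C57BL/6 and 0.058 and 102 RPKM in BALB/c. Nearest to Mt2 were Ncam1, Plekhh2 and Arpp21, at 0.55, 0.58 and 0.59. Ncam1, the neural cell adhesion molecule that spreads over denervated fibres and whose gene overlaps Gm11149, averaged 0.805 and 42.9 RPKM in C57BL/6 and 1.96 and 39.7 RPKM in BALB/c.

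Markers of cell types other than muscle fibres were measured beside these genes. Macrophage and monocyte markers were called higher in the right leg for 15 of 15 genes in C57BL/6 and 11 of 15 in BALB/c, with summed RPKM of 10.4 to 13.8 on the left and 95.8 to 190 on the right in C57BL/6, and 64.5 to 109 against 192 to 308 in BALB/c. After rescaling 15 and 9 were higher. Their part in the changes of Hmox1 and the other antioxidant genes was not tested. In bulk tissue, fewer cells of a type and less RNA per cell cannot be told apart. Of 12 markers of surface and corneal epithelium, the tissue best known for Aldh3a1, only 4 passed the filter in each strain; Krt14, Krt15, Epcam and Esrp1 were at 0 in all C57BL/6 libraries, and Krt5, Krt14 and Krt1 in all BALB/c libraries. Of the 4 tested, 2 were called higher in the right leg in C57BL/6 and 3 in BALB/c, or 1 and 1 after rescaling. The summed RPKM of all 12 was 3.395 to 3.87 on the left and 24.1 to 29.2 on the right in C57BL/6, and 4.46 to 5.52 against 20.9 to 48.8 in BALB/c. Fibro-adipogenic progenitor markers were called higher for 9 of 9 genes in C57BL/6 and for 4 of 9 in BALB/c, where 1 was lower, and after rescaling 4 were higher in C57BL/6 and 2 lower in BALB/c. The shares of all genes called higher were 63.6% and 42.5% on the deposited scale, and the shares called lower 8.56% and 7.67%. No such share is given for the rescaled counts, so those cannot be set against all genes. Among genes that respond to handling and hormones, 3 of 9 glucocorticoid-responsive genes were called higher and 2 lower in C57BL/6, and 3 and 3 in BALB/c. Limma-voom, run on the deposited scale only, also gave 3 higher in C57BL/6. After rescaling 5 were lower in C57BL/6 and none higher in limma, also at an unadjusted p under 0.05, and 2 were higher and 3 lower in BALB/c. Of 9 immediate early and heat shock genes, 7 were called higher in C57BL/6 and 4 in BALB/c, or 5 and 2 after rescaling. None was lower in limma on the deposited scale, also at an unadjusted p under 0.05 and with limma-voom.

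The other genes of these pathways were taken from 11 lists with 193 genes, none of them one of the 9. Each was tested right against left with limma, with p adjusted over all tested genes. The lists were chosen with earlier results of these data known, and no list was tested against the other genes. In C57BL/6, 124 of 177 tested genes were higher in the right leg and 16 lower, and the median log2 change was 0.68. In BALB/c, 90 of 180 were higher and 19 lower, with a median of 0.49. These shares of 70.1% and 50% higher stand beside 63.6% and 42.5% of all genes. The shares lower were 9.04% and 10.56%, beside 8.56% and 7.67% of all genes. The same shares of all genes are to be set beside the deposited-scale counts of each list below. No share of all genes is given here for the rescaled counts. After rescaling the counts were 60 higher and 54 lower in C57BL/6 and 44 higher and 36 lower in BALB/c. Of the 177 genes tested in both strains, 87 were higher in both, 11 lower in both, and 1, Alas1, was called in opposite directions. Calls were harder to reach in BALB/c: of simulated 1.5-fold changes, 67.2% were recovered in C57BL/6 and 40.3% in BALB/c. Fewer calls in BALB/c, here and in each list below, are therefore not a measure of a smaller response.

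**Figure D4:**
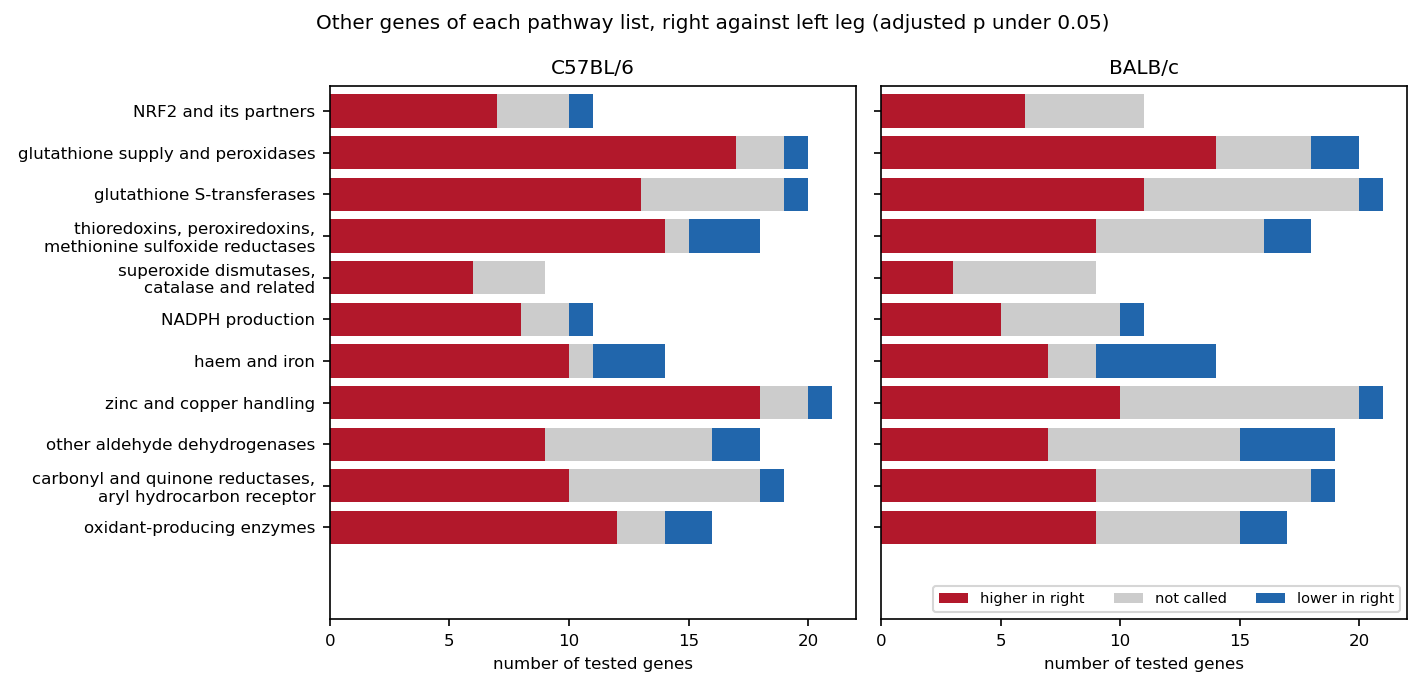
Number of tested genes of each of the 11 pathway lists called higher (red), called lower (blue) or not called (grey) in the right leg by limma at an adjusted p under 0.05, on the deposited scale. In C57BL/6, 124 genes are higher and 16 lower, and in BALB/c 90 are higher and 19 lower.

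Among NRF2 and its partners, 7 of 11 genes were higher and 1 lower in C57BL/6, and 6 were higher and none lower in BALB/c, where none was lower at an unadjusted p under 0.05 or with limma-voom either. The shares higher were 63.64% and 54.55%, beside 63.6% and 42.5% of all tested genes. After rescaling the counts were 2 and 5 in C57BL/6 and 2 and 1 in BALB/c. Nfe2l2, which encodes NRF2, rose from 14.4 ± 1.7 to 37.8 ± 4.4 RPKM in C57BL/6 (log2 change 1.36, adjusted p = 4.07e-05) and from 21.2 ± 3.6 to 37.6 ± 3.6 RPKM in BALB/c (0.82, adjusted p = 0.00303). The BALB/c call of Nfe2l2 was lost after rescaling, at 0.31 and an adjusted p of 0.0962. Mafk, one of the small MAF partners, rose by a log2 change of 1.48 and 1.39, the latter not called with no filter on low values (adjusted p = 0.0624). Keap1 was 25.1 ± 1.1 RPKM on the left and 26.2 ± 1.1 on the right in C57BL/6 and 27.0 ± 0.26 and 32.7 ± 5.7 RPKM in BALB/c, and passed the threshold in neither strain, though without BALB/c right library 2 it was called higher there, at 0.40 and an adjusted p of 0.0192. Bach1 did not pass either, with log2 changes of 0.03 and -0.39. After rescaling Keap1 and Bach1 were called lower in C57BL/6, at -0.65 and -0.56, and Bach1 in BALB/c, at -0.80.

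Glutathione supply and peroxidases had 17 of 20 genes higher and 1 lower in C57BL/6, and 14 higher and 2 lower in BALB/c, against 6 and 7 and 8 and 2 after rescaling. Gpx3, the secreted glutathione peroxidase, rose from 104 ± 23 to 734 ± 23 RPKM in C57BL/6 and from 109 ± 32 to 1232 ± 438 RPKM in BALB/c, with adjusted p of 5.58e-06 and 0.000131. Gpx1, the cytosolic form, rose by 1.93 and 1.64. Chac1, which degrades glutathione, fell from 56.98 ± 22 to 9.40 ± 2.8 RPKM in C57BL/6 and from 16.9 ± 1.8 to 11.1 ± 1.3 RPKM in BALB/c. The BALB/c call of Chac1 was lost without left library 3, at an adjusted p of 0.0561, or with 1 spread shared over all libraries, at 0.0802.

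Of the glutathione S-transferases, which conjugate glutathione to reactive compounds, 13 of 20 were higher and 1 lower in C57BL/6, and 11 of 21 higher and 1 lower in BALB/c, against 7 and 5 and 4 and 2 after rescaling. Gstt1 rose by a log2 change of 2.30 and 1.58, and Gstm6, from under 0.3 RPKM, by 1.71 and 1.81. Mgst3, a microsomal member, fell from 148 ± 8.2 to 39.3 ± 6.8 RPKM in C57BL/6 and from 160 ± 11 to 35.0 ± 25 RPKM in BALB/c. The Gstm genes are close copies of one another, so the split of reads among them is uncertain.

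Thioredoxins, peroxiredoxins and methionine sulfoxide reductases, the system that Txnrd1 and Srxn1 serve, had 14 of 18 genes higher and 3 lower in C57BL/6, and 9 higher and 2 lower in BALB/c, against 6 and 7 and 5 and 4 after rescaling. Txn1, the thioredoxin reduced by Txnrd1, rose from 32.1 ± 2.9 to 165 ± 21 RPKM in C57BL/6 and from 32.3 ± 3.3 to 176 ± 39 RPKM in BALB/c, with adjusted p of 3.31e-06 and 6.82e-05. Its log2 change of 2.34 and 2.41 stood beside 0.80 and 0.23 for Txnrd1. Txnip, the thioredoxin-binding protein, fell by 1.34 and 1.36 on the log2 scale, and the methionine sulfoxide reductase Msrb3 fell by 1.41 and 1.47. The spans of Txnip and Msrb3 overlap those of other genes in the annotation, as do the spans of Mtf1 and Flvcr1 below. Reads were counted without strand, and overlap of exons was not examined.

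Of 9 superoxide dismutases, catalase and related genes, 6 were higher in C57BL/6 and 3 in BALB/c, and none was called lower by limma, at an unadjusted p under 0.05 or with limma-voom. After rescaling 5 were higher and 3 lower in C57BL/6, and 3 and 2 in BALB/c. Ccs, the copper chaperone of superoxide dismutase, rose by a log2 change of 1.50 and 1.51. Of 11 genes of NADPH production, which feeds both the glutathione and the thioredoxin systems, 8 were higher and 1 lower in C57BL/6, and 5 and 1 in BALB/c, against 4 and 2 and 3 and 4 after rescaling. Pgd, of the pentose phosphate pathway, rose from 3.73 ± 0.63 to 24.6 ± 1.3 RPKM and from 6.77 ± 1.0 to 27.0 ± 3.6 RPKM, with adjusted p of 3.11e-06 and 8.25e-05.

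Around Hmox1, 10 of 14 haem and iron genes were higher and 3 lower in C57BL/6, and 7 higher and 5 lower in BALB/c, against 5 and 7 and 5 and 5 after rescaling. Hmox2, the constitutive haem oxygenase, was more abundant per length than Hmox1 in both legs and rose from 26.0 ± 1.2 to 54.7 ± 3.4 RPKM in C57BL/6 and from 32.5 ± 3.8 to 72.6 ± 3.5 RPKM in BALB/c. It overlaps Cdip1. Blvrb, a biliverdin reductase, rose by 2.29 and 1.82, and Ftl1, the ferritin light chain, by 1.43 and 1.76. Without BALB/c right library 2, the richest in erythroid markers, the BALB/c values were 1.12 for Hmox2, 1.68 for Blvrb and 1.54 for Ftl1. Right library 1, at 12470 summed erythroid RPKM, was still included, and the part of blood RNA in these changes was not tested. Tfrc, the transferrin receptor, fell by 0.92 and 1.65 on the log2 scale, and Flvcr1, a haem exporter, fell by 0.96 and 1.04, the former not called with no filter on low values (adjusted p = 0.0845).

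Around the metallothioneins, 18 of 21 zinc and copper genes were higher and 1 lower in C57BL/6, and 10 higher and 1 lower in BALB/c, against 5 and 2 and 4 and 4 after rescaling. Mtf1, the zinc-sensing factor, rose from 2.59 ± 0.30 to 4.14 ± 0.07 RPKM in C57BL/6 (log2 change 0.59, adjusted p = 0.000976) and from 2.65 ± 0.28 to 4.14 ± 0.27 RPKM in BALB/c (0.56, adjusted p = 0.0137). These changes were close to those of the median gene, and after rescaling were -0.04 and 0.11 with no call. The BALB/c call of Mtf1 was also lost without left library 1 (adjusted p = 0.0536) or right library 3 (0.055). Mt3, another metallothionein, rose by 1.48 and 1.06 from 2.09 ± 1.2 and 2.52 ± 1.0 RPKM, calls that were lost in both strains after rescaling, at adjusted p of 0.0655 and 0.084. In BALB/c the Mt3 call was also lost without right library 1 or 3, at 0.0539 and 0.0558. Slc30a2, a zinc exporter of vesicles, fell by 2.24 and 1.68 on the log2 scale.

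Beside Aldh3a1, 9 of 18 other aldehyde dehydrogenases were higher and 2 lower in C57BL/6, and 7 of 19 higher and 4 lower in BALB/c, against 7 and 6 and 3 and 5 after rescaling. Aldh2, the mitochondrial enzyme, rose from 27.9 ± 5.3 to 246 ± 20 RPKM in C57BL/6 and from 51.8 ± 21 to 243 ± 92 RPKM in BALB/c, with adjusted p of 2.9e-06 and 0.000895. Aldh3b1, of the same family as Aldh3a1, rose by 1.72 and 1.92 to 2.75 and 4.57 RPKM. The log2 changes of Aldh3a1, 9.27 and 8.46, stand beside 3.13 and 2.23 for Aldh2. Aldh1l2, a mitochondrial folate enzyme, fell by 0.83 and 1.95 on the log2 scale.

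Of 19 carbonyl and quinone reductases and genes of the aryl hydrocarbon receptor, 10 were higher and 1 lower in C57BL/6, and 9 and 1 in BALB/c, against 4 and 6 and 2 and 3 after rescaling. Cbr1, a carbonyl reductase, rose by 1.87 and 1.63, in the direction opposite to Nqo1. Ahr, which encodes the receptor, read 0.224 ± 0.066 and 0.297 ± 0.086 RPKM in C57BL/6 and 0.461 ± 0.17 and 0.524 ± 0.15 RPKM in BALB/c, left and right, and was not called. Of the oxidant-producing enzymes 12 of 16 were higher and 2 lower in C57BL/6, and 9 of 17 higher and 2 lower in BALB/c, against 9 and 4 and 5 and 4 after rescaling. Duoxa1, a maturation factor of dual oxidases, was listed at 0 in 2 of the 3 C57BL/6 left libraries and averaged 3.99 ± 0.42 RPKM on the right, and in BALB/c it rose from 0.618 ± 0.15 to 25.4 ± 15 RPKM. In C57BL/6 it passed the filter only through the right leg. The dual oxidases themselves were low. Duox1 averaged 0.047 and 0.107 RPKM in C57BL/6, left and right, under the filter. In BALB/c it averaged 0.470 and 0.726 RPKM and was not called. Duox2 did not pass the filter in either strain. Nos1, the nitric oxide synthase of muscle fibres, fell by 2.02 and 1.64 on the log2 scale. Cyba, a subunit of the phagocyte oxidase, rose by 1.33 and 0.99 while the macrophage markers were higher too, and the part of those cells was not tested. The BALB/c call of Cyba was lost after rescaling, at an adjusted p of 0.104.

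The strains were compared by the difference of their changes, BALB/c minus C57BL/6, in 1 limma fit over the 12 libraries. Of 177 listed genes, 3 had a higher change in BALB/c and 13 a lower one, or 1.69% and 7.34%, beside 1.76% and 4.33% of all tested genes. After rescaling the counts were 4 and 8, with no filter on low values 0 and 4 in limma (9 and 33 at an unadjusted p under 0.05; 3 and 15 by limma-voom on filtered genes). Leaving out 1 library at a time gave 1 to 5 higher and 2 to 23 lower, so the counts rest on single libraries: without C57BL/6 right library 2 there were 2 lower, and without BALB/c left library 1 or right library 2 there were 23 and 22. Alas1, the first enzyme of haem synthesis, was 38.9 ± 1.1 and 54.6 ± 3.5 RPKM in C57BL/6, left and right, and 56.5 ± 9.4 and 29.9 ± 1.1 RPKM in BALB/c. The difference was -1.38, with an adjusted p of 0.00225, and passed the threshold in all 20 alternatives tried, with adjusted p of 0.00167 to 0.00945. The C57BL/6 rise of Alas1 became a fall of -0.23 after rescaling, so that only the difference, and not the opposite directions, held on both scales. Aldh1l2 differed by -1.12 with an adjusted p of 0.0133, and also passed in all 20, at 0.0108 to 0.0406.

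The remaining differences named from the lists were less stable. Chac1 fell less in BALB/c, by a difference of 1.92 (adjusted p = 0.0162), and passed in 19 of 20 alternatives. Nnt, the mitochondrial transhydrogenase that is known to carry a deletion in 1 substrain of C57BL/6, and Idh2, a mitochondrial NADPH source, differed by -1.62 and -2.22, with adjusted p of 0.0241 and 0.0249, and each passed in 15 of 20. The labels give no substrain. Slc39a6, Aldh1b1, Msrb1, Ephx2 and Gstm2 passed in 9 to 13 of their 19 or 20 alternatives. For the 9 genes themselves the difference is given without a test. Beside those of Aldh3a1, Mt1, Mt2, Srxn1 and Hmox1 above, it was -0.58 ± 0.17 for Txnrd1, 0.44 ± 0.21 for Gclm, 0.29 ± 0.21 for Nqo1 and 0.04 ± 0.22 for Gclc.

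**Figure D5:**
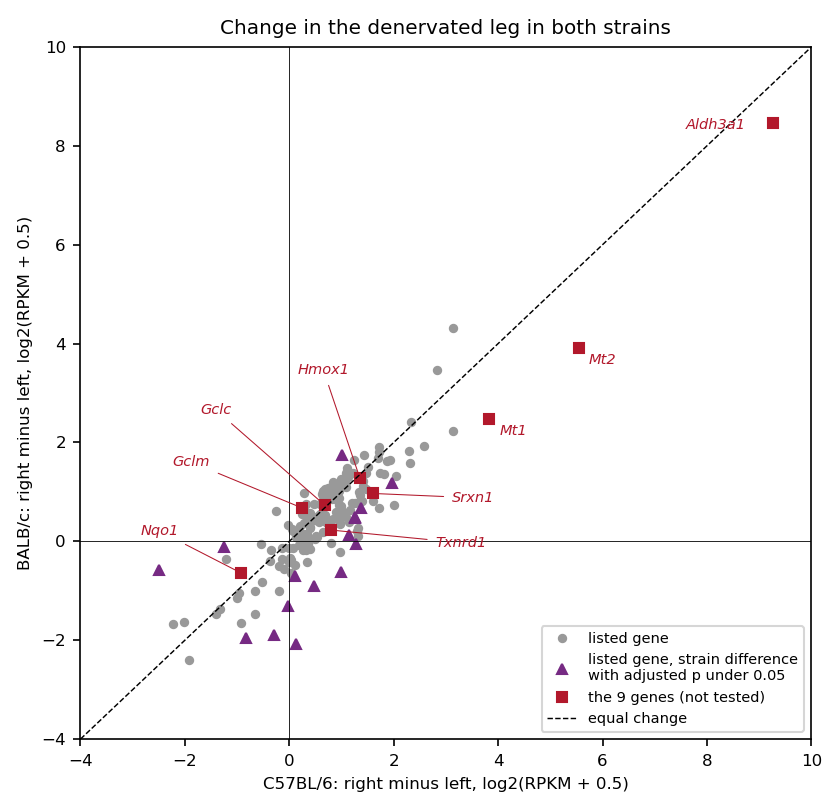
Log2 change of the right against the left leg in C57BL/6 (x axis) and BALB/c (y axis). Squares are the 9 genes, grey points the other listed genes, and triangles listed genes whose change differed between the strains at an adjusted p under 0.05 (3 higher and 13 lower in BALB/c). Mt1, Mt2, Srxn1 and Txnrd1 lie below the line of equal change and Gclm above it.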

How the data were processed

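The authors deposited RPKM values, 1 table per strain. HOMER counted exon reads without regard to strand for a single transcript of each gene in its mm9 annotation, per the file headers; column names say FPKM while the recorded command asks for RPKM. HISAT2, HOMER, DESeq2, GRCm38 and mm10 appear in the submitters' processing notes without versions or roles; the alignment build is not given in the sources used. Columns were matched to samples through the code in each description. Multiplying RPKM by transcript length and a scaling total of 18132600 to 19282900 gave whole reads, within 0.1 read, for 99.65% to 99.77% of the values of a library; depth was read from these.

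RPKM was transformed to log2(RPKM + 0.5) and genes averaging 0.1 RPKM or more in a table were fitted with limma 3.58.1 in R 4.3.3 (trended eBayes, two-sided, Benjamini-Hochberg over all tested genes, threshold 0.05), each strain on its own 6 libraries and the difference between strains on all 12. The fit was tested on simulated reads in which as many genes were raised as lowered. It recovered 98.5% of 2-fold changes in C57BL/6 and 85.1% in BALB/c, and 67.2% and 40.3% of 1.5-fold changes. The simulation had no shift of most genes in 1 direction, so it cannot show how the scaling affects the calls. The 9 genes and the 11 lists were chosen with earlier results of these data known. From each list the text names up to 2 genes per direction called in both strains with the largest mean change and at least 1 RPKM, or, with none, the largest called in either, and the largest strain difference called; Nfe2l2, Keap1, Bach1, Mtf1, Ahr, Hmox2 and Nnt are always named, though not every gene the rule gives is printed with its values. Genes near Aldh3a1 and Mt2 are the 3 of smallest root mean square difference of log2 values after subtracting each table's left mean. Alternatives were other pseudocounts (0.1 and 1 RPKM), no filter or 1 RPKM, median-of-ratios rescaling, an untrended fit, 1 shared spread, a replicate block, each library left out, and limma-voom on recovered reads, which was chosen after seeing the data. Promoter windows are from RefSeq (GRCm38.p6).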

Additional observations from a re-analysis of the deposited data

Results flagged for a closer look

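10 of the named pathway genes changed differently in the 2 strains by the test of the difference itself (BALB/c change minus C57BL/6 change, log2, limma adjusted p). The change was lower in BALB/c for Idh2 -2.22 (0.0249), Nnt -1.62 (0.0241), Ephx2 -1.59 (0.0461), Alas1 -1.38 (0.00225), Aldh1b1 -1.33 (0.0283), Aldh1l2 -1.12 (0.0133) and Slc39a6 -0.78 (0.0241). It was higher in BALB/c for Chac1 1.92 (0.0162), Msrb1 1.15 (0.0352) and Gstm2 0.74 (0.0453). Right against left, Idh2 and Ephx2 were not called in C57BL/6, and Nnt, Aldh1b1 and Msrb1 were not called in BALB/c. Alas1 and Aldh1l2 passed the threshold in each of the 20 alternatives run. Ephx2 had the highest adjusted p over its alternatives, 0.135.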

How the results depend on the processing

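Within each strain, the counts of listed genes called stayed within 1.5 times under every setting except median-of-ratios rescaling, which gave 60 higher and 54 lower in C57BL/6 and 44 higher and 36 lower in BALB/c. The difference between strains was less stable: rescaling gave 8 lower, and dropping the filter gave 0 higher and 4 lower in limma (9 and 33 at an unadjusted p under 0.05; 3 and 15 by limma-voom on filtered genes). Leaving out each library in turn gave 1 to 5 higher and 2 to 23 lower; the extremes came without C57BL/6 right library 2 (2 lower), and without BALB/c left library 1 or right library 2 (23 and 22 lower). Rescaling reversed Gclm (-0.44), Keap1 (-0.65), Bach1 (-0.56), Mtf1 (-0.035) and Alas1 (-0.23) in C57BL/6 and Txnrd1 (-0.29) in BALB/c, since it subtracts about the median change; of these only Mtf1 and Alas1 had been called before. Among genes called on neither scale, the sign also turned for Keap1 in BALB/c (-0.26), Ahr (-0.11 and -0.15) and Idh2 in C57BL/6 (-0.58). With the replicate block the counts were 129 higher and 18 lower in C57BL/6, 87 and 20 in BALB/c, and 4 and 15 for the strains. Same-numbered legs correlated at 0.178, 0.106 and 0.006 in C57BL/6 and 0, 0.047 and 0.249 in BALB/c. With 3 libraries a leg, these values cannot decide whether same-numbered legs come from the same mouse. The BALB/c column codes skip the same number in both legs, but pairing is not labelled. The main fit did not treat the legs as pairs. Of the named calls the block lost Slc39a6 in BALB/c (0.48, adjusted p = 0.0582) and the Slc39a6 strain difference (-0.78, adjusted p = 0.0538). The planned edgeR fit on recovered reads was not run, since the deposited unit is RPKM. Left-leg Aldh3a1, at 3 to 11 reads a library, is limited by depth.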
